A study of Mus musculus with 9 samples.

Results

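Neat1, Snhg11, Malat1, Meg3 and Snhg1 make long noncoding RNAs, and their levels were followed in mouse lung after injection of melanoma exosomes. They are 5 of the 12393 genes that the platform annotation ties to single-gene probe sets, and it gave them 17 probe sets. Neat1 and Snhg11 were picked from measured values, because both were lower on the 3 arrays numbered replicate 1 than on the other 6, and no numeric cut was set. Malat1, Meg3 and Snhg1 were listed with them. Differences between replicate 1 and the other numbers are therefore described below without a test. The comparisons between groups, and between replicates 3 and 2, were not used in the choice and were tested.

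Each group was represented by 3 single-colour Affymetrix arrays of whole lung from C57BL/6 mice. The first group was lung collected 24 h after 10 µg of exosome protein from B16-F10 cells, a mouse melanoma line, had been given through the tail vein. The second was lung collected 48 h after the same injection, and the third was control lung, whose treatment was not given in the sources used here. Exosomes are small membrane vesicles shed by cells. The labels number the arrays of each group as biological replicates 1 to 3 and speak of 3 mice per time point in an experiment done in triplicate. Whether an array carried 1 mouse or a pool is not stated, so the p-values below measure only the spread between these arrays. Whole lung is a mixture of cell types, so fewer cells of a type and less RNA per cell cannot be told apart.

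Long noncoding RNAs are transcripts with no known protein product, and several of them organise the cell nucleus. Neat1 is the scaffold of paraspeckles, nuclear bodies built around it by RNA-binding proteins such as Sfpq and Nono, and it is made as a short polyadenylated form and a long form without a poly(A) tail. Malat1, its neighbour on chromosome 19, is an abundant nuclear RNA that sits at nuclear speckles, where splicing factors are stored. Snhg1 and Snhg11 belong to the host genes whose introns hold small nucleolar RNAs, guides for the chemical modification of ribosomal RNA. Meg3 is an imprinted RNA transcribed from the maternal chromosome of the Dlk1-Dio3 region on chromosome 12. The cDNA was primed with oligo(dT), per the labels' protocols, and which Neat1 form the probe set reads was not analysed here.

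Promoter windows of 300 bases, from 250 before to 50 after the annotated start, are shown because they are the regulatory sequence nearest to each gene. They come from RefSeq on the mouse build GRCm38.p6, which held a window for 4 of the 5 genes. Capitals mark matches on either strand to the TATA box TATAAA, the CAAT box CCAAT, the Sp1 box GGGCGG, the E-box CACGTG and the cyclic AMP response element TGACGTCA, and positions count from the start with -1 as the base before it. The Snhg11 window lies at chr2:158375463-158375762 on the plus strand, the Malat1 window at chr19:5802623-5802922 on the minus strand, the first of both Meg3 windows at chr12:109540746-109541045 on the plus strand and the Snhg1 window at chr19:8723237-8723536 on the plus strand.
Snhg11: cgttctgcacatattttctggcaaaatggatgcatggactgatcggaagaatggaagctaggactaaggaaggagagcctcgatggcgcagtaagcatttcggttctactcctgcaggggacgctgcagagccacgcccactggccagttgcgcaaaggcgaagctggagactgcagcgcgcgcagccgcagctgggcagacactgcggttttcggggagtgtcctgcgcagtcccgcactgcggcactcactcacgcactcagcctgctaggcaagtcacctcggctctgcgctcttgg
Malat1: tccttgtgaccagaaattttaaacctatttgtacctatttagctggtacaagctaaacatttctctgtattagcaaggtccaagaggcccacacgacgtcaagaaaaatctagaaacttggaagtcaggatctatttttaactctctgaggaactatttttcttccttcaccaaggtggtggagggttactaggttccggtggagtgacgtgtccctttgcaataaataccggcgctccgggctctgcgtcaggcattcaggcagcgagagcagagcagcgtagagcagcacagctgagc
Meg3: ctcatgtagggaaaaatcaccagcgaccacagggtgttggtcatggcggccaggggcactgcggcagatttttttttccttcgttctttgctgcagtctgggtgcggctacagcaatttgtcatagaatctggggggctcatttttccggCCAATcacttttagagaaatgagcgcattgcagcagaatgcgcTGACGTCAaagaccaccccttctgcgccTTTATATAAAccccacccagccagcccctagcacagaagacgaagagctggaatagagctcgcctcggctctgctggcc
Snhg1: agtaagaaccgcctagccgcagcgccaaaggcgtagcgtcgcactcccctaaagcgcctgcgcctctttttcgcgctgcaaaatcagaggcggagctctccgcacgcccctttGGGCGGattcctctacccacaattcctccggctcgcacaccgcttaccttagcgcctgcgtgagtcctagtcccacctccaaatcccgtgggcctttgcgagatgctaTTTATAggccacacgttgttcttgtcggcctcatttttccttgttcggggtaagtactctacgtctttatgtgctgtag

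The Snhg11 and Malat1 windows held none of the 5 motifs. The Meg3 window held CCAAT at -100, TGACGTCA at -57 and a pair of overlapping matches to TATAAA on opposite strands from -29. In the Snhg1 window GGGCGG stood at -137, and TATAAA matched the opposite strand at -29. Among 32851 promoter windows of this length, TATAAA was present in 13.6%, CCAAT in 37.4%, GGGCGG in 35.7%, CACGTG in 7.15% and TGACGTCA in 1.79%. GC content was 60.0% for Snhg11, 56.7% for Snhg1, 53.7% for Meg3 and 47.0% for Malat1, against a median of 52.7% over all windows. None of these 4 windows, nor the second Meg3 window, opened with a run of 6 or more pyrimidines within 3 bases of the start, which 10.0% of all windows had.

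The arrays differed more by replicate number than by group. Signals had been scaled by the authors to a common trimmed mean, and Present calls covered 69.9% to 72.6% of probe sets. By limma, 20.1% of the 15886 probe sets tested differed between the 3 arrays numbered replicate 1 and the other 6 at an adjusted p under 0.05. The median probe set had 51.5% of its variance between replicate numbers and 11.7% between groups. The authors' table for the whole series carries other group labels than the sample files for the same values. It also exchanges the numbers 1 and 2 for the control files. Groups and numbers here follow the sample files, and the group differences under the table's labels stand in the closing section. All 12 lung markers, among them Sftpc, Scgb1a1, Ager and Cldn5, passed the detection filter, with summed signals of 67274 to 68857 units on the replicate 1 arrays and 71835 to 74453 on the other 6. Neuronal markers were checked because Snhg11 and Meg3 are known from brain, and 7 of 14 on the array (Syt1, Tubb3, Prph, Th, Chga, Nefl and Scn9a) were detected on no array. Those that passed, 2 in number, summed to 1414 to 1617 units in replicate 1 and 1027 to 1391 on the other 6 arrays. Taken singly they went opposite ways, with 1 higher in replicate 1 (log2 difference 0.27) and 1 lower (-0.20). The filter required a detection p-value under 0.05 on every array of at least 1 group. It passed 15 of the 17 probe sets of the 5 genes, and 15886 probe sets in all.

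Neat1 was measured by 1 probe set (1428083_at), detected on all 9 arrays. Its signals in replicates 1, 2 and 3 were 2341.1, 5162.0 and 4359.0 units at 24 h, 2110.4, 4680.2 and 4834.2 units at 48 h, and 1980.4, 3939.6 and 5483.7 units in control lungs. The 3 replicate 1 arrays were the lowest, whatever their group, while the 3 groups overlapped throughout. On the quantile-normalised log2(signal + 16) scale, used for all levels and differences below, Neat1 averaged 11.86 ± 0.56 at 24 h, 11.82 ± 0.67 at 48 h and 11.77 ± 0.74 in control lungs (SD, n = 3 each). Differences between groups were small beside this spread, which includes the spread between replicate numbers. With the replicate number as a block, the 24 h interval against control was -0.22 to 0.38 and the 48 h interval -0.25 to 0.35. The log2 difference from control was 0.08 at 24 h (95% CI -0.89 to 1.06, 1.06-fold) and 0.05 at 48 h (-0.93 to 1.02, 1.03-fold), and 48 h minus 24 h gave -0.04 (-1.01 to 0.94), with limma adjusted p = 1 throughout. Within replicates 1, 2 and 3 the difference from control was 0.25, 0.32 and -0.32 at 24 h and 0.08, 0.24 and -0.18 at 48 h, so replicate 3 had the opposite sign at both times. Without the 3 replicate 1 arrays it was -0.0041 at 24 h (-0.44 to 0.43) and 0.03 at 48 h (-0.40 to 0.46).

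Sorted by replicate number, Neat1 averaged 11.08 ± 0.13 in replicate 1, 12.13 ± 0.17 in replicate 2 and 12.24 ± 0.16 in replicate 3 (SD, n = 3 each). Replicate 1 was below the mean of replicates 2 and 3 by 0.96 at 24 h, 1.16 at 48 h and 1.21 in control lungs, or 0.463-fold on average. Under the numbers of the authors' table the control array at 1980.4 units is a replicate 2, so the low array of each group shares a number only by the sample files. These values chose the gene and are given as a description. In the list of 15886 probe sets ordered from the most reduced in replicate 1, Neat1 stood at rank 28, with 94.6% of its variance between replicate numbers and 0.386% between groups. Replicates 3 and 2, which the choice did not use, differed by 0.10 (95% CI -0.19 to 0.40, limma adjusted p = 0.684). This difference was -0.18 at 24 h, 0.04 at 48 h and 0.46 in control lungs.

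Snhg11 was likewise measured by 1 probe set (1434292_at), detected on all 9 arrays. In replicates 1, 2 and 3 it read 101.8, 226.0 and 261.7 units at 24 h, 105.9, 237.8 and 310.5 units at 48 h, and 122.5, 234.2 and 424.3 units in control lungs. The ordering by replicate number was the same in each group, with replicate 1 lowest and replicate 3 highest, and the groups overlapped. Levels were 7.64 ± 0.68 at 24 h, 7.78 ± 0.73 at 48 h and 7.94 ± 0.85 in control lungs (SD, n = 3 each). The differences from control were smaller than that spread, which includes the spread between replicate numbers. With the replicate number as a block the 24 h interval was -0.59 to -0.01 (limma adjusted p = 0.999). At 24 h the log2 difference was -0.30 (95% CI -1.41 to 0.81, 0.812-fold) and at 48 h -0.16 (-1.27 to 0.95, 0.895-fold), while 48 h minus 24 h was 0.14 (-0.97 to 1.25), each with limma adjusted p = 1. The replicate 3 pair gave the largest differences from control, -0.67 at 24 h and -0.42 at 48 h, against -0.22 and -0.11 in replicate 1 and -0.02 and 0.05 in replicate 2. Without the replicate 1 arrays the values were -0.34 at 24 h (-0.96 to 0.28) and -0.18 at 48 h (-0.80 to 0.44).

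By replicate number, Snhg11 averaged 6.96 ± 0.11 in replicate 1, 7.98 ± 0.03 in replicate 2 and 8.41 ± 0.34 in replicate 3 (SD, n = 3 each). Replicate 1 lay 1.17 below the mean of the other numbers at 24 h, 1.22 at 48 h and 1.30 in control lungs, a mean of 0.426-fold and rank 14 in the same list. The replicate number held 92.9% of its variance and group 3.80%. Replicate 3 exceeded replicate 2 in every group, by 0.15 at 24 h, 0.34 at 48 h and 0.80 in control lungs. The mean of 0.43 (95% CI 0.14 to 0.72, 1.35-fold) did not pass after adjustment (limma adjusted p = 0.153), and without the control arrays it was 0.24 (-0.02 to 0.51).

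**Figure D1:**
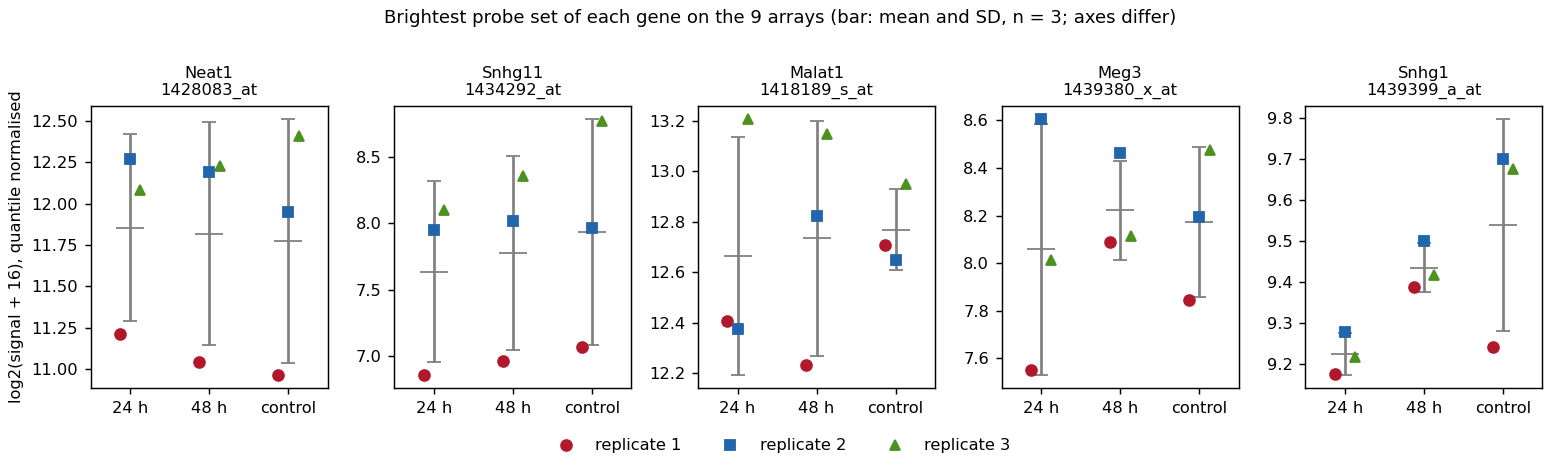
Level of each gene's probe set with the highest mean, as quantile-normalised log2(signal + 16), on each array, grouped as 24 h, 48 h and control; circles, squares and triangles are replicates 1, 2 and 3, and the grey bar is the mean and SD of 3 arrays. Neat1 and Snhg11 have their 3 replicate 1 arrays at the bottom (means 11.08 and 6.96), Malat1 has its 3 replicate 3 arrays at the top of each group, and the 3 groups overlap except 48 h and 24 h for Snhg1.

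Malat1 had 5 probe sets, of which 4 were detected on all 9 arrays and tested. The one with the highest mean (1418189_s_at) read 5229.8, 5575.3 and 9913.9 units in replicates 1, 2 and 3 at 24 h, 4746.4, 7338.0 and 9146.5 units at 48 h, and 6041.7, 6445.5 and 7989.5 units in control lungs. Replicate 3 was the highest in each group, and replicate 1 did not stand apart. Malat1 averaged 12.66 ± 0.47 at 24 h, 12.73 ± 0.46 at 48 h and 12.77 ± 0.16 in control lungs (SD, n = 3 each). The difference from control was -0.10 at 24 h (95% CI -0.71 to 0.50, 0.93-fold) and -0.03 at 48 h (-0.64 to 0.57, 0.977-fold), and 48 h minus 24 h was 0.07 (-0.53 to 0.67), with limma adjusted p = 1. Pairs of one number disagreed in sign, with -0.30, -0.27 and 0.26 at 24 h and -0.48, 0.18 and 0.20 at 48 h in replicates 1, 2 and 3. Without the replicate 1 arrays the differences were -0.0026 (-0.68 to 0.68) and 0.20 (-0.48 to 0.88). The other 3 tested probe sets gave differences from control of 0.0041 to 0.16 at 24 h and 0.03 to 0.13 at 48 h.

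Malat1 was the gene whose replicates 3 and 2 lay farthest apart among the 5. All 4 tested probe sets read higher in replicate 3 than in replicate 2 in all 3 groups, and the replicate 3 arrays did not overlap with the replicate 2 arrays. The mean log2 differences were 0.49 for 1418189_s_at (95% CI 0.11 to 0.86, 1.4-fold), 0.88 for 1418188_a_at (0.43 to 1.33, 1.84-fold), 1.00 for 1438403_s_at (0.55 to 1.45, 2-fold) and 0.54 for 1452378_at (0.03 to 1.05, 1.46-fold). These 4 probe sets read the same gene and are not independent. None passed over all probe sets, with limma adjusted p = 0.184, 0.11, 0.109 and 0.247 in that order. The signals of 1438403_s_at in replicates 3 and 2 were 2650.2 and 1707.5 units at 24 h, 3486.7 and 1324.2 units at 48 h, and 2283.2 and 1158.4 units in control lungs. Replicate 1 of that probe set, at 1278.0, 1178.8 and 1564.4 units in the same groups, was near replicate 2.

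As a description, the 4 tested Malat1 probe sets were 0.681-fold to 0.871-fold in replicate 1 relative to replicates 2 and 3, with overlapping arrays. The fifth (1427285_s_at) was detected on 6 of 9 arrays and was not tested. It read 156.6, 129.0 and 184.6 units in replicate 1 at 24 h, 48 h and control, 49.2, 32.3 and 62.1 in replicate 2, and 119.4, 169.9 and 58.8 in replicate 3. It thus went against the other 4, at 1.91-fold in replicate 1, and across the 9 arrays it correlated with them at Pearson r of 0.0329 to 0.473. The other 4 correlated among themselves at r of 0.764 to 0.968. These correlations are over 9 arrays that share replicate numbers and are given as a description.

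Meg3 had 5 probe sets, of which 4 were tested. The one with the highest mean (1439380_x_at) gave 173.8, 365.7 and 242.7 units in replicates 1, 2 and 3 at 24 h, 251.9, 331.3 and 263.1 units at 48 h, and 219.2, 275.5 and 346.7 units in control lungs. Replicate 1 was the lowest array within each group, though the 48 h replicate 1 array exceeded the 24 h replicate 3 array. Meg3 averaged 8.06 ± 0.53 at 24 h, 8.22 ± 0.21 at 48 h and 8.17 ± 0.31 in control lungs (SD, n = 3 each). Groups overlapped, with a difference from control of -0.11 at 24 h (95% CI -0.69 to 0.46, 0.923-fold) and 0.05 at 48 h (-0.53 to 0.63, 1.04-fold), and of 0.16 for 48 h minus 24 h (-0.41 to 0.74), at limma adjusted p = 1. In replicates 1, 2 and 3 the 24 h pair differed by -0.30, 0.41 and -0.46 and the 48 h pair by 0.24, 0.27 and -0.36. Without the replicate 1 arrays the differences were -0.02 at 24 h (-0.57 to 0.52) and -0.05 at 48 h (-0.59 to 0.50).

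A second Meg3 probe set (1452183_a_at) separated the replicate numbers more sharply. It read 74.2, 77.4 and 81.5 units in replicate 1 at 24 h, 48 h and control, against 144.1, 173.2 and 133.1 in replicate 2 and 113.2, 132.8 and 153.0 in replicate 3. All 3 replicate 1 arrays were below the other 6, at 0.594-fold on average, and the same was true of 1426758_s_at at 0.706-fold. Meg3 probe sets 1439380_x_at and 1436713_s_at, at 0.716-fold and 0.963-fold, overlapped. Replicate 3 minus replicate 2 was -0.22 for 1439380_x_at (95% CI -0.63 to 0.19, limma adjusted p = 0.527) and between -0.25 and 0.17 for the other 3 tested probe sets. The direction was thus opposite to that of Malat1 for 3 of the 4, and no value passed. The fifth Meg3 probe set (1436057_at) was detected on 0 arrays, with signals of 17 to 55.2 units.

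Taking for each of the 5 genes only the probe set with the highest mean, that of Snhg1 (1439399_a_at) varied least over the 9 arrays. It gave 567.6, 598.4 and 574.9 units in replicates 1, 2 and 3 at 24 h, 652.0, 707.2 and 655.4 units at 48 h, and 599.7, 819.0 and 805.2 units in control lungs. All 3 arrays at 48 h exceeded all 3 at 24 h, before and after normalisation, while the control signals ran from between those ranges to above both. After normalisation control replicate 1, at 9.24, lay within the 24 h range of 9.18 to 9.28, so control and 24 h overlapped on that scale. Snhg1 averaged 9.22 ± 0.05 at 24 h, 9.43 ± 0.06 at 48 h and 9.54 ± 0.26 in control lungs (SD, n = 3 each). It had the smallest unadjusted p among the tested probe sets of the 5 genes at 24 h, with a difference from control of -0.32 (95% CI -0.62 to -0.01, 0.804-fold, unadjusted p = 0.0422), which did not pass (limma adjusted p = 1). At 48 h the difference was -0.10 (-0.41 to 0.20, 0.93-fold).

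Between the times, Snhg1 was 0.21 above its 24 h level at 48 h (95% CI -0.09 to 0.51, 1.16-fold, limma adjusted p = 1). The replicate 1, 2 and 3 pairs gave 0.21, 0.22 and 0.20 for this difference. Against control the 24 h pairs gave -0.07, -0.42 and -0.46 and the 48 h pairs 0.15, -0.20 and -0.26, so replicate 1 stood apart from the other numbers. Without the replicate 1 arrays the 24 h difference was -0.44 (-0.74 to -0.14), again with limma adjusted p = 1. Leaving out 1 control array moved it, to -0.47 (95% CI -0.73 to -0.21) without control replicate 1 and -0.23 (-0.58 to 0.11) without control replicate 2, and the 48 h difference was -0.25 and -0.024 without the same arrays. The other 4 Snhg1 probe sets did not share these values. At 24 h they ran from -0.20 to 0.09 and for 48 h minus 24 h from -0.02 to 0.40.

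Among the probe sets of highest mean, that of Snhg1 followed the replicate number least. Its 1439399_a_at had 51.5% of its variance between groups and 27.4% between numbers, while the share between numbers ran from 25.2% to 63.5% over the other 4 Snhg1 probe sets. In 1439399_a_at replicate 1 was at 0.872-fold of replicates 2 and 3. Probe sets 1433674_a_at and 1433675_at stood at 0.844-fold and 0.864-fold, whereas 1437658_a_at and 1454703_x_at stood at 1.25-fold and 1.26-fold. The latter were detected on all 9 arrays but dim. Their signals were 29 to 65.1 and 23 to 60.5 units, against 567.6 to 819 for 1439399_a_at. Those last probe sets were the lowest in replicate 3, with replicate 3 minus replicate 2 at -0.36 (95% CI -0.69 to -0.04) and -0.38 (-0.79 to 0.04). Neither passed (limma adjusted p = 0.224 and 0.304), and 1439399_a_at differed by -0.06 (-0.30 to 0.19).

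Counted together, 0 of the 15 tested probe sets of the 5 genes passed at 24 h or 48 h against control or between the times, as did 0% of the 15886 tested in each comparison. At an unadjusted limma p under 0.05 there was 1 of 15 at 24 h (1.16% of all), 0 at 48 h (1.42%) and 0 between the times (1.78%). Differences from control ran from -0.32 to 0.16 at 24 h, with 7 higher and 8 lower, and from -0.16 to 0.21 at 48 h, with 10 higher and 5 lower. Groups did not overlap for 0 probe sets at 24 h (3.88% of all), 0 at 48 h (4.48%) and 1 between the times (4.58%), the Snhg1 probe set above. For replicate 3 minus replicate 2, 0 of 15 passed (0% of all), 6 had an unadjusted p under 0.05 (18.9% of all), and 5 were non-overlapping and higher in replicate 3 (11.6%), 1 of Snhg11 and 4 of Malat1. In the contrast that chose the members, 4 of 15 were non-overlapping and lower in replicate 1, where 12.6% of all probe sets were. Both 24 h and 48 h comparisons use the same 3 control arrays.

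**Figure D2:**
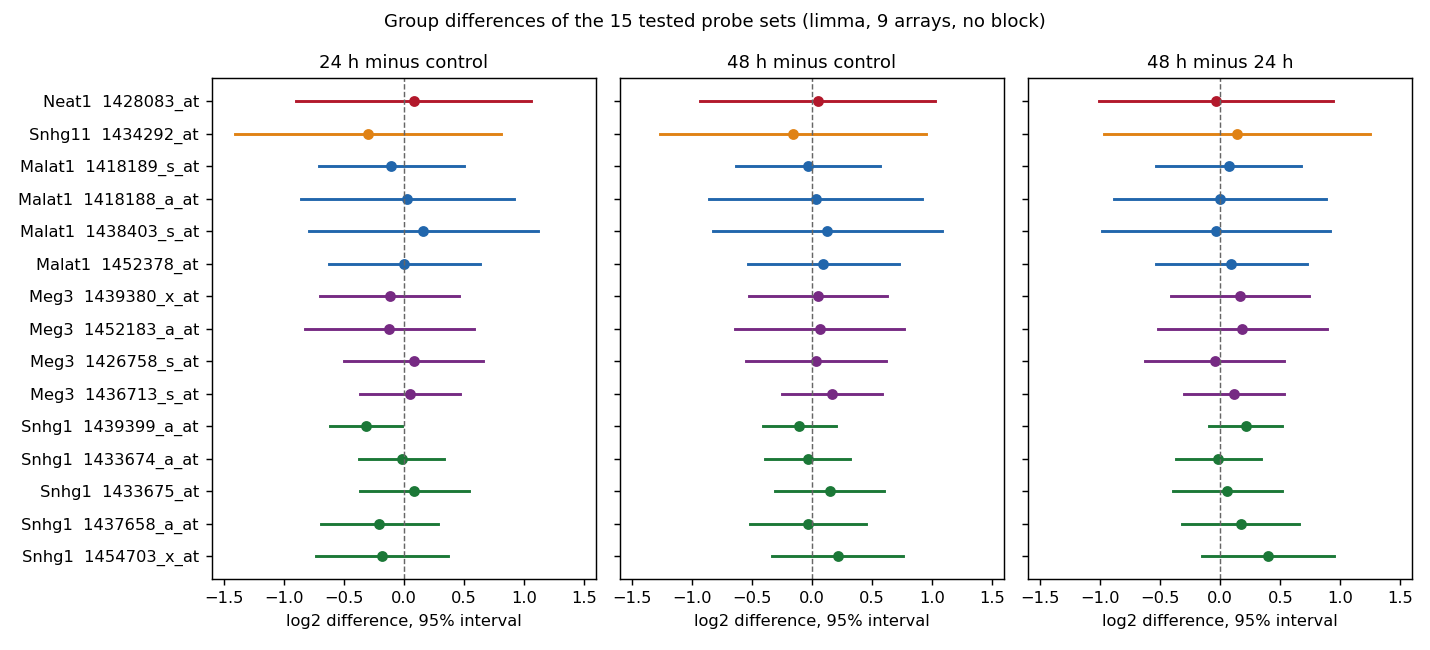
Log2 difference of the 15 tested probe sets with its 95% interval from limma, for 24 h minus control, 48 h minus control and 48 h minus 24 h, coloured by gene. Without a replicate block, as drawn, the intervals of Neat1 and Snhg11 are the widest, and every interval crosses 0 except that of Snhg1 1439399_a_at at 24 h (-0.62 to -0.01), which did not pass after adjustment.

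The width of these intervals sets what could be seen. For Neat1 the 24 h interval allows 0.538-fold to 2.08-fold of control, and for Snhg11 0.377-fold to 1.75-fold. For Malat1 it allows 0.612-fold to 1.41-fold, for Meg3 0.619-fold to 1.38-fold, and for Snhg1 0.652-fold to 0.991-fold. Among these 5 probe sets, those of Neat1 and Snhg11 had the widest limits in this fit, which has no term for the replicate number. With the replicate number as a block the 24 h intervals on the log2 scale were -0.22 to 0.38 for Neat1, -0.59 to -0.01 for Snhg11, -0.48 to 0.27 for Malat1, -0.53 to 0.30 for Meg3 and -0.56 to -0.07 for Snhg1, so that Neat1 and Snhg11 were no longer the widest. No probe set passed in either fit.

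**Figure D3:**
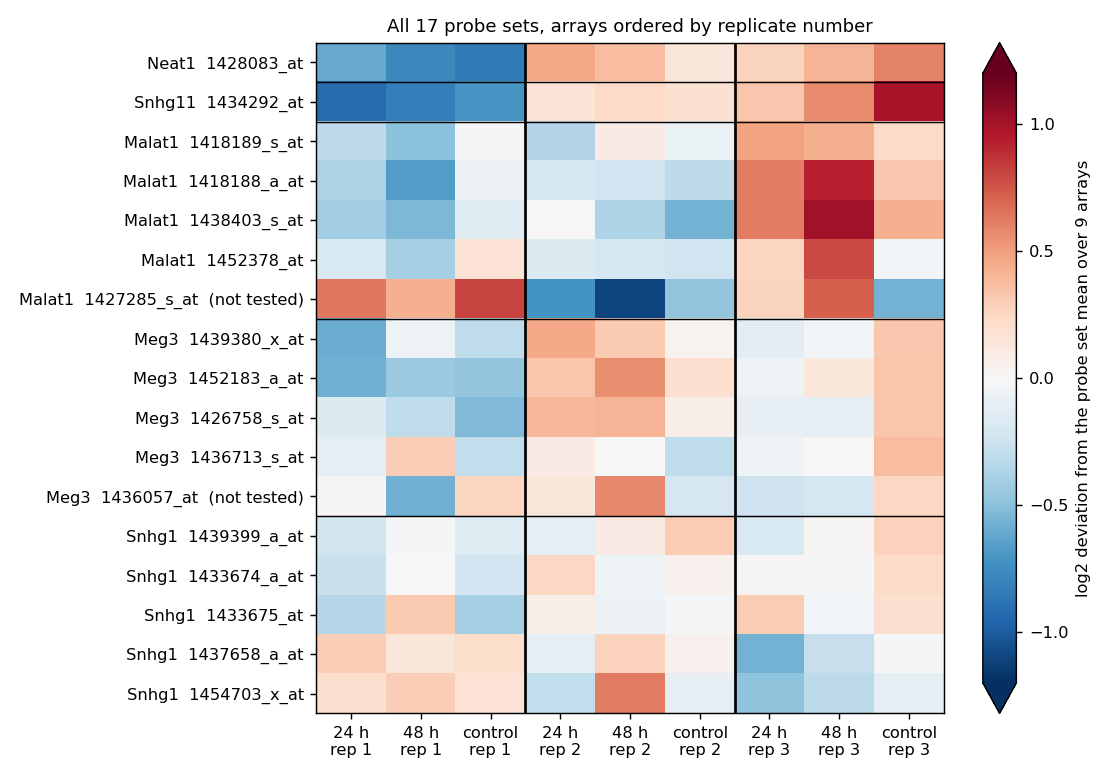
Deviation of each of the 17 probe sets from its own mean over the 9 arrays (log2; blue below, red above), with arrays ordered by replicate number. Neat1 and Snhg11 are blue on all 3 replicate 1 arrays, 4 Malat1 probe sets are at their reddest in replicate 3, the fifth (1427285_s_at) has its own order, and Snhg1 1437658_a_at and 1454703_x_at are red on all 3 replicate 1 arrays.

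Across the 9 arrays Neat1 and Snhg11 followed each other, with Pearson r of 0.943. Both had been picked for low values on the same replicate 1 arrays, so a high r was built into the choice. Neat1 also followed Meg3 1452183_a_at (0.912) and 1426758_s_at (0.835), and was less like the tested Malat1 probe sets (0.274 to 0.563). The 9 points share replicate numbers, which separate them into clusters, and these correlations are given as a description.

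Genes whose levels were most like those of Neat1 over the 9 arrays were Psmd9, which encodes a proteasome assembly chaperone (r = 0.996), Yeats4, a chromatin reader subunit (0.993), 2410002F23Rik (0.991), Fnbp4 (0.987) and Ttc5 (0.983). All 5 were lower in replicate 1, by 0.35 to 0.86, and differed from control by at most 0.04 at 24 h. The genes most like Snhg11 were Eogt, a glycosyltransferase of the secretory pathway (0.983), the sugar transporter gene Slc50a1 (0.979), Tmem63b (0.972), Clasrp, which encodes a Clk4-associating splicing protein (0.97), and the virus receptor gene Cxadr (0.966). They were lower in replicate 1 by 0.21 to 0.74. After the mean of each replicate number was subtracted, the nearest genes were others, with Akt2 (0.994), Rnf225 (0.981) and Ap2m1 (0.976) for Neat1 and Mbtd1 (0.967), Tgfb2 (0.967) and Gpr19 (0.955) for Snhg11. Malat1 was most like Gpnmb (0.978), Sel1l (0.942) and Scd2 (0.939). For Meg3 these were Hook2 (0.969), Rps4l (0.968) and Bcan (0.954), and for Snhg1 Pik3cd (0.984), Mcm2 (0.969) and Trmt2a (0.947). These are the highest of 9281 genes over 9 arrays, and nothing is read from them.

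Protein-coding neighbours on the chromosome did not pass in any group comparison. Beyond Neat1 and Malat1 on chromosome 19 lie Ltbp3, which encodes a latent TGF-beta binding protein, on one side and Frmd8 and Slc25a45 on the other. Against control they were at 0.07, -0.06 and -0.15 at 24 h and at 0.25, -0.20 and 0.06 at 48 h. In replicate 1 they were lower by 0.24, 0.02 and 0.25, against 1.11 for Neat1. The neighbours of Snhg11, the lipopolysaccharide-binding protein gene Lbp and the adipogenin gene Adig, went the other way from it in replicate 1, at 0.15 and 0.31. Slc3a2 and Wdr74, which flank Snhg1, were at -0.25 and -0.07, and Ppp2r5c beside the Meg3 region at 0.05. Dlk1, Begain and Dio3, the other coding genes looked up around Meg3, did not pass the detection filter.

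Protein partners of Neat1 showed no call after exosomes. Of 28 measured genes of paraspeckle proteins, 10 were higher and 18 lower than control at 24 h, with a median log2 difference of -0.06, and 11 were higher and 17 lower at 48 h, with a median of -0.02. Medians over all 9281 genes tested were 0.002 and -0.0053, and limma called 0 genes in the list and 0 over all. Among the core partners, Sfpq was at -0.08, Nono at 0.07 and Pspc1 at -0.17 at 24 h. The smallest p in the list belonged to Ahdc1, a gene for an AT-hook protein, at 0.671-fold (95% CI 0.499 to 0.902) at 24 h and 0.747-fold (0.556 to 1) at 48 h, with limma adjusted p = 1. Hnrnpm at 24 h (0.891-fold) and Tardbp at 48 h (1.09-fold), both splicing regulators, came next. In replicate 1, given as a description, Sfpq stood at 0.25, Nono at -0.15 and Pspc1 at -0.23, while the cold-inducible RNA-binding protein gene Cirbp was at -0.998 and Hnrnpa1 at -0.75, both named after their values were seen. The list median there was -0.06, against -0.02 over all genes.

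Nuclear speckle and splicing-factor genes, the setting of Malat1, were lower than control in 22 of 29 cases at 24 h (median -0.03) and higher in 16 of 29 at 48 h (median 0.03), with 0 called at either time. The extremes by p were the speckle protein gene Pnn at 0.851-fold and the splicing kinase gene Clk1 at 1.13-fold at 24 h, and Srsf6 at 1.15-fold and Srsf3 at 0.926-fold at 48 h. In replicate 3 minus replicate 2, where Malat1 was higher, 19 of 29 were higher with a median of 0.11, against -0.03 over all genes, and 0 were called. In replicate 1 the median was -0.22, and 13 of 29 were non-overlapping and lower, against 13.3% of all genes. They included Srrm2, the scaffold of nuclear speckles, at -0.71 and the kinase gene Clk4 at -0.70, both named after their values were seen.

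Host genes of small nucleolar RNAs other than Snhg1 and Snhg11 were split evenly at 24 h, with 14 of 28 higher and a median of 0.01, and 9 of 28 were higher at 48 h with a median of -0.03. None was called by limma, against 0 of all genes. Gas5, a host gene that is itself a long noncoding RNA, was at 0.06 and 0.01, and Snhg8 at -0.0016 and 0.02. By p the first at 48 h was Snhg5 at 1.16-fold (95% CI 0.93 to 1.45), followed by the ribosomal protein gene Rps3 at 0.92-fold. At 24 h they were the translation factor gene Eif4g2 at 0.852-fold and Prkdc, the DNA-dependent protein kinase, at 0.88-fold. Replicate 1 held 21 of 28 lower, with a median of -0.08, against 5029 of 9281 lower and a median of -0.02 over all genes. There Gas5 was at -0.25, Snhg5 at -0.23 and Snhg8 at -0.28, none of them near the -1.23 of Snhg11, while Ncl, which encodes nucleolin and was named after its value was seen, was at -0.61.

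Imprinted genes, which include the region of Meg3, gave 8 of 19 higher at 24 h and 9 of 19 at 48 h, with medians of -0.01 and -0.02 and 0 called. Nap1l5, an imprinted nucleosome assembly factor gene, had the smallest p at both times, at 0.707-fold (95% CI 0.531 to 0.941) at 24 h and 0.614-fold (0.462 to 0.818) at 48 h, and did not pass (limma adjusted p = 1). Next by p were Airn, an imprinted antisense RNA, at 0.805-fold at 24 h and the amino acid transporter gene Slc38a4 at 1.23-fold at 48 h. Rian, the noncoding RNA that follows Meg3 in the same imprinted region, was at 0.05 and 0.02. In replicate 1 Rian stood at 0.59, while the 4 tested Meg3 probe sets stood at -0.75 to -0.05. The median of the imprinted list in replicate 1 was 0.24, and 14 of 19 were higher, against a median of -0.02 and 4252 of 9281 higher over all genes.

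Other long noncoding RNA genes did not share one direction. Of 12 tested, 6 were higher at 24 h and 8 at 48 h, with medians of 0.0086 and 0.01 and 0 called. The first by p at 24 h were Airn, given above, and Xist, the X-inactivation RNA, at 0.862-fold. At 48 h they were Snhg5, given above, and Airn at 0.864-fold. In replicate 1 the list was split, with 6 of 12 lower and a median of -0.02. Xist was at -0.43 there, whereas Dleu2 and Oip5os1 were at 0.51 and 0.40. Genes of RNA decay and of the nuclear exosome gave 11 of 21 higher at 24 h (median 0.0019) and 10 of 21 at 48 h (median -0.0075), with -0.02 in replicate 1. By p the first were Dis3, which encodes a nuclease of the RNA exosome, at 1.15-fold and the m6A reader gene Ythdc1 at 0.889-fold at 24 h, and the RNase P subunit gene Pop4 at 1.23-fold and Dis3 at 1.14-fold at 48 h. Targets of p53, which activates Neat1 in mouse and human cells, gave 12 of 20 higher at 24 h and 13 of 20 at 48 h, with medians of 0.01 and 0.02 and 0.0017 in replicate 1. The first by p were the nuclease gene Aen at 0.87-fold and the kinase gene Plk2 at 1.12-fold at 24 h, and Plk2 at 1.15-fold and the sestrin gene Sesn2 at 0.808-fold at 48 h. Cdkn1a, which encodes the cell cycle inhibitor p21 and was named after its value was seen, was at 1.195 in replicate 1. At 24 h and 48 h limma called 0 genes in these 3 lists.

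**Figure D4:**
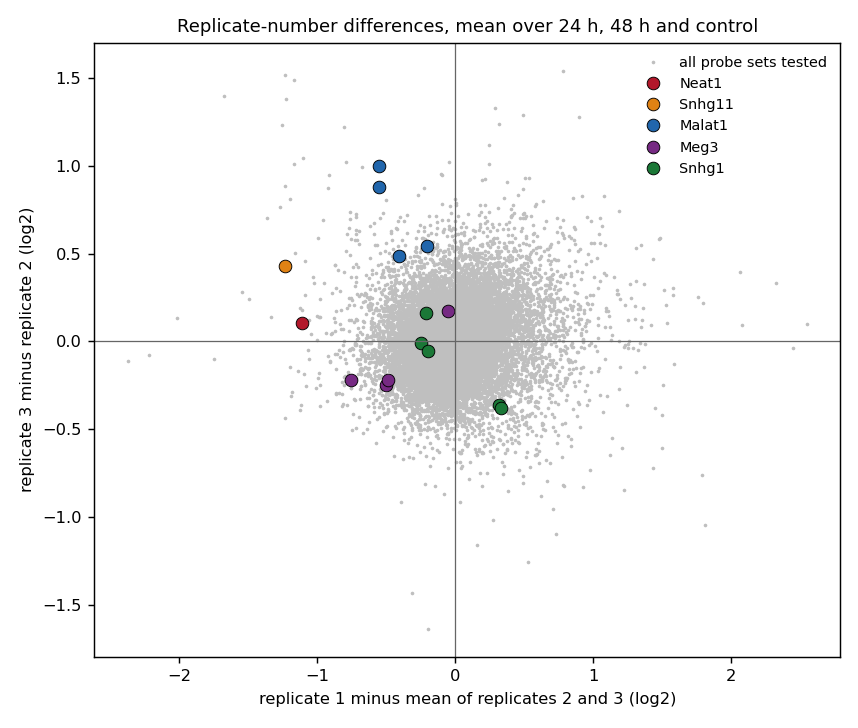
Each dot is 1 of 15886 tested probe sets; the x axis is replicate 1 minus the mean of replicates 2 and 3 and the y axis replicate 3 minus replicate 2, both as mean log2 differences over the 3 groups. Snhg11 and Neat1 lie to the left (-1.23 and -1.11, ranks 14 and 28 from the lowest), with the gene Dbp beyond them at -2.22. The 4 tested Malat1 probe sets lie at 0.49 to 1.00 on the y axis. The tested Meg3 and Snhg1 probe sets lie at -0.75 to 0.34 on the x axis.

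Several other measures moved with replicate 1, and they are given beside the Neat1 and Snhg11 values. Genes of the circadian clock, a cycle that sets daily transcription, had a mean log2 level of 8.76 to 9.09 on the replicate 1 arrays and 9.53 to 9.75 on the other 6 over 15 genes. Of these 15, 10 were non-overlapping and lower, against 13.3% of all genes, led by Dbp at -2.22 and Per3 at -2.02, while Arntl, which peaks in the opposite phase, was at 2.45. Clock genes of smallest p between groups were Nr1d1 at 0.844-fold and Per2 at 0.832-fold of control at 24 h, and Hlf at 0.78-fold and Cry1 at 0.799-fold at 48 h, all with limma adjusted p = 1. The 18S ribosomal RNA 3′ control probe set, chosen after values were seen, read 4823.6 to 6406.8 units in replicate 1, against 614.7 to 1358.2 in replicate 2 and 523.6 to 2641.1 in replicate 3. A B2 repeat control (MURINE_B2) read 9897.2 to 10301.9 units in replicate 1 and 11590.8 to 13292.4 on the other 6 arrays, and the B1 repeat control 1149.7 to 1363.4 and 1554.9 to 1914.5. A second, dimmer B2 control (MUR_b2) overlapped, at 278.8 to 300.4 units in replicate 1 and 234.8 to 512.9 on the other 6 arrays. The ratio of the 3′ to the 5′ probe set, a measure of RNA integrity, was 1.16 to 1.22 for Actb in replicate 1 and 1.25 to 1.38 elsewhere. That of Gapdh overlapped, at 0.816 to 0.908 and 0.74 to 0.956.

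Markers of other cell types and tissues were read in the same way. Over 10 cardiac genes the summed signal was 14602 to 18022 units in replicate 1, 11887 to 16286 in replicate 2 and 7668 to 11472 in replicate 3. Over 3 tested skeletal muscle genes it was 503 to 2296 units in replicate 1 and 163 to 474 on the other 6, with Myh2 detected on no array. Over 6 T cell genes it was 705 to 866 units in replicate 1 and 894 to 1018 on the other 6, with Cd4 detected on no array. The 6 adipocyte genes, at 6181 to 9202 units in replicate 1 and 3850 to 6745 on the other 6, overlapped, with Lep and Ucp1 detected on no array. All 7 neutrophil genes had a higher mean in replicate 1, with a median of 0.77, but the summed signals overlapped at 11030 to 29677 units in replicate 1 and 7343 to 15388 on the other 6. Sums also overlapped for 6 B cell genes (1780 to 2982 and 2102 to 3416 units, median -0.29, Pax5 detected on no array), 4 mesothelial genes (3925 to 4256 and 3109 to 5164 units, median 0.50) and 4 erythroid genes (1249 to 1435 and 765 to 1387 units, median 0.23, Hba-a1 and Hba-a2 detected on no array). The part of each of these in the Neat1, Snhg11 and Malat1 values was not tested, and the replicate number and whatever was shared by arrays of 1 number cannot be told apart.

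**Figure D5:**
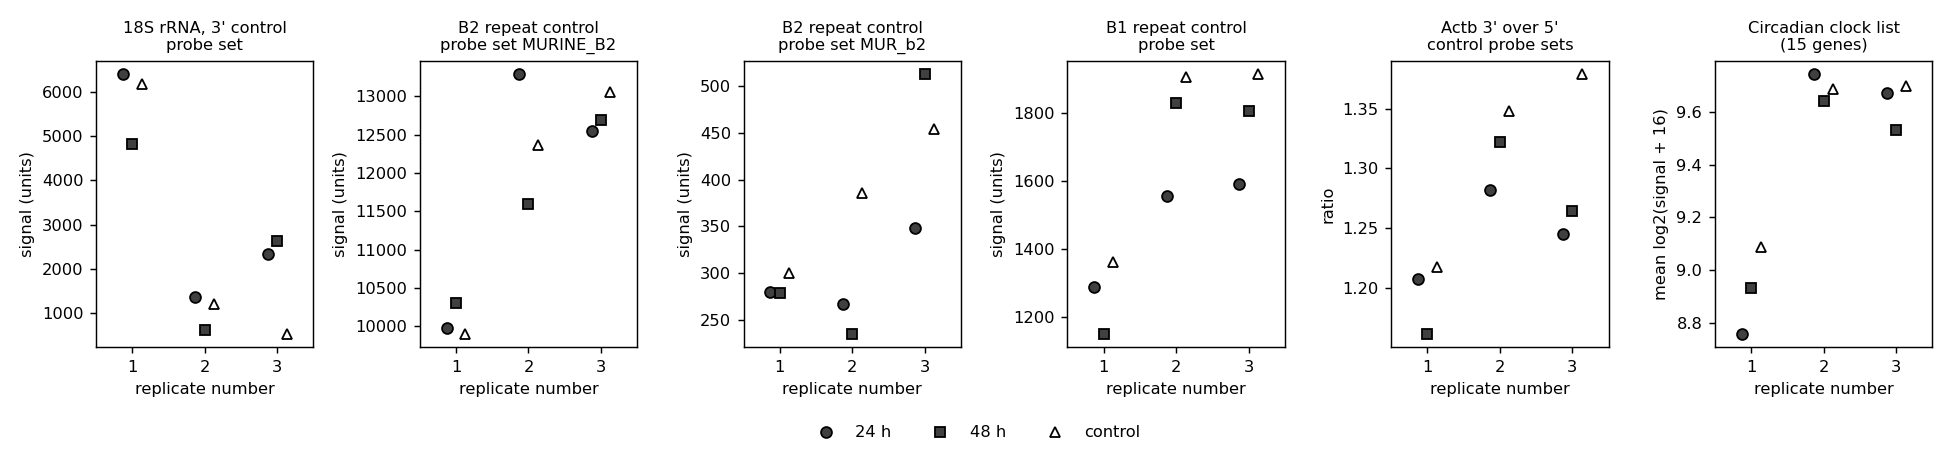
Signals of the 18S ribosomal RNA 3′, MURINE_B2, MUR_b2 and B1 control probe sets, the Actb 3′ over 5′ ratio and the mean log2 level of 15 circadian clock genes on each array, by replicate number; circles are 24 h, squares 48 h and open triangles control lungs. Replicate 1 is above the other 6 arrays for 18S (4823.6 units and more) and below them for MURINE_B2, B1, the Actb ratio and the clock genes, and it overlaps them for MUR_b2.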

How the data were processed

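RNA of 9 mouse lung samples was hybridised as biotin-labelled cRNA, per the labels' protocols. Each deposited file holds, for 22690 probe sets, the signal intensity with its Present or Absent call and the p-value of that detection, per the file headers. The authors scaled the intensity to a trimmed mean of 500.1 to 500.2 on every array, and the summary software was not given in the sources used here. Removing 64 control probe sets left 22626, of which 20380 had 1 gene symbol in the platform annotation, 691 several and 1555 none. Signals were raised by 16, taken to log2 and quantile normalised, so a fold understates changes of dim probe sets. Probe sets with a detection p-value under 0.05 on every array of at least 1 group were tested (15886 probe sets, 9281 genes).

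Tests used limma 3.58.1 in R 4.3.3, with statmod 1.5.0 (lmFit and eBayes, two-sided, all 9 arrays, group means, Benjamini-Hochberg adjusted p under 0.05). Replicate 3 minus replicate 2 was fitted with group as a term. In simulated 24 h minus control data with 200 of 15886 probe sets changed, 0% were recovered at a log2 size of 0.5, 87.5% at 1 and 99.5% at 2. False calls numbered 0, 13 and 14. Simulated arrays were drawn independently, without shared replicate numbers, and the changed probe sets were picked at random. The standard error was 0.435 for Neat1 and 0.495 for Snhg11, against a median of 0.153, so these shares do not apply to them.

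The same replicate numbers recur in the 3 groups. Deviations from group means correlated at 0.275 to 0.651 over 9 pairs of arrays with the same number and at -0.561 to 0.308 over 18 pairs differing in number and group, so the numbers were taken to pair the arrays. The main group comparisons were nevertheless fitted without a term for the number, and the fit with it as a block is given as an alternative.

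The 5 genes and the gene and marker lists were chosen with earlier results of these data known. Every probe set of the 5 genes is reported, and the tested probe set of highest mean stands for its gene. Named besides are the most correlated genes (5 each for Neat1 and Snhg11, 3 each for the other members), the nearest 2 protein-coding genes on each side, and the 2 genes of smallest p per list at 24 h and at 48 h. Sfpq, Nono, Pspc1, Gas5, Snhg8, Rian and the genes of the lists given only for replicate 1 were named outside that rule, with their values in view. The alternatives were a replicate block, other offsets (1 and 64), other normalisations, no detection filter, arrays left out and the labels of the authors' table of the whole series. That table holds the same linear intensities: 8 of its 9 columns matched a sample file at all 22690 probe sets within 0.051 units and the other at 22417. Columns headed 24 h matched the control files, those headed 48 h the 24 h files and those headed control the 48 h files. The columns headed 24 h replicates 1 and 2 matched control files 2 and 1, and all other columns matched a file of the same number. All deposited value columns were mapped, with 0 set aside.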

Additional observations from a re-analysis of the deposited data

How the results depend on the processing

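The calls for the 5 genes did not change: no probe set of theirs passed in any setting tried. Over all probe sets, replicate 3 minus replicate 2 gave 0 calls as reported, 4 with an offset of 64 and 1 with cyclic loess. The replicate block, as a fixed or random term, changed no call. With the fixed block the 24 h difference from control was 0.08 (95% CI -0.22 to 0.38) for Neat1, -0.30 (-0.59 to -0.01) for Snhg11 and -0.32 (-0.56 to -0.07) for Snhg1, each with limma adjusted p = 0.999, and the number of probe sets at an unadjusted p under 0.05 was 551 at 24 h, 738 at 48 h and 883 between the times, against 185, 225 and 282 without it.

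Directions near 0 turned in several settings, and the cause was not tested. Without the quantile step Malat1 was at 0.0114 at 48 h against control. Without the 3 replicate 1 arrays Neat1 was at -0.0041 at 24 h and 0.032 for 48 h minus 24 h, Malat1 at 0.20 at 48 h, and Meg3 at -0.047 at 48 h and -0.022 for 48 h minus 24 h. The labels of the authors' table give the same file contrasts under other names, so the turns there were fixed in advance. The table's 24 h minus control is 48 h minus control by the sample files with the sign changed. It was -0.046 for Neat1, 0.16 for Snhg11, 0.034 for Malat1 and 0.10 for Snhg1. The table's 48 h minus control is 48 h minus 24 h by the sample files with the sign changed, at -0.16 for Meg3. The table's 48 h minus 24 h is 24 h minus control by the sample files. It was 0.083 for Neat1, -0.30 for Snhg11, -0.10 for Malat1, -0.12 for Meg3 and -0.32 for Snhg1.

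Leaving out each array in turn moved the 24 h difference from control between -0.33 and 0.40 for Neat1, -0.73 and 0.12 for Snhg11, -0.37 and 0.036 for Malat1 and -0.39 and 0.14 for Meg3. At 48 h it ran between -0.36 and 0.43 for Neat1, -0.59 and 0.26 for Snhg11, -0.24 and 0.22 for Malat1 and -0.11 and 0.20 for Meg3. For 48 h minus 24 h the ranges were -0.36 to 0.35 for Neat1, -0.25 to 0.55 for Snhg11, -0.14 to 0.34 for Malat1 and -0.089 to 0.44 for Meg3. With an array left out, the replicate numbers were no longer balanced over the groups, and these fits had no term for them. Replicate 3 minus replicate 2 of Neat1 ran from -0.073 without the control arrays to 0.25 without the 24 h arrays. With each array left out in turn, Snhg1 ran from -0.47 to -0.23 at 24 h, -0.25 to -0.024 at 48 h and 0.18 to 0.24 for 48 h minus 24 h. The lowest limma adjusted p of the 5 genes in any setting was 0.0628, for Malat1 1438403_s_at in replicate 3 minus replicate 2 with an offset of 64. In that comparison 1418188_a_at, 1438403_s_at and 1452378_at of Malat1 and Snhg1 1437658_a_at kept their direction in all settings. For the remaining probe sets, 36 comparisons were refitted 588 times, and the sign turned 83 times in 31 of them with 0 calls changed (lowest limma adjusted p = 0.122). In the fit without the block the spread between replicate numbers widens the intervals of Neat1 and Snhg11, and 2 dim probe sets, 1427285_s_at of Malat1 and 1436057_at of Meg3, were not tested.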
